A study of Rattus norvegicus with 9 samples.

Results

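The Egr and Nr4a genes encode 2 small families of transcription factors, and 7 of the 18733 genes in the deposited tables belong to them by their symbol: Egr1, Egr2, Egr3, Egr4, Nr4a1, Nr4a2 and Nr4a3. All 7 passed the filter on low counts, which kept 14840 genes. Their levels were compared in the hippocampus of male rats in 3 groups of 3, with 1 library per rat. The taVNS rats were given an experimental ischaemic stroke by occlusion of the middle cerebral artery (MCAO), followed by 14 days of transcutaneous auricular vagus nerve stimulation, in which the vagal branch of the outer ear is stimulated electrically. The PSCI rats (post-stroke cognitive impairment) had the same occlusion and then 2 weeks of ordinary feeding. Both stroke groups were formed at random from rats that met a limit on alternation rate and cognitive index, set at 20% of the control mean. Control rats were fed in the ordinary way. The strain, the age, the hemisphere taken and any sham surgery or sham stimulation are not given in the labels, and the extraction protocol speaks of mice while the labels and gene symbols are those of rats. The question put to the data was whether these genes stay low after stimulation.

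Egr proteins are zinc finger transcription factors that bind GC-rich sites, and Nr4a proteins are orphan members of the nuclear receptor family. Both families are immediate early genes: calcium entry and kinase signalling in an active neuron switch on their transcription within minutes, through factors already present in the cell such as the serum response factor with its Elk partners and the cyclic AMP response element binding protein CREB, so that their mRNA serves as a trace of recent activity. In the hippocampus Egr1 and the Nr4a genes are known for their part in long-term plasticity and memory formation, while Egr3 and Egr4 are close relatives that are induced in many of the same cells. Outside neurons the families also act in glia and immune cells, and Egr2 is best known for driving myelination in Schwann cells.

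Library depth was even, with total counts of 13747389 to 15415694. Levels are given below as CPM, counts scaled to library size by edgeR's TMM method, and a count of 0 in a library would allow a level of up to 0.195 to 0.218 CPM. All 7 markers of excitatory neurons were measured in the labelled hippocampus, and their summed level was 2744.7 to 3361.7 CPM in taVNS, 1909.3 to 3206.9 CPM in PSCI and 3030.6 to 3271.5 CPM in controls. A pair of libraries stood apart. PSCI replicate 2 and taVNS replicate 3 had summed levels of 8 markers of meninges and fibroblasts of 297 CPM and 418 CPM, against 56.0 to 95.6 CPM in the other 7 libraries, and PSCI replicate 2 was also the lowest library for excitatory neurons, at 1909.3 CPM, and for oligodendrocytes, at 4928.6 CPM. Member results are also given without these libraries. In bulk tissue, fewer cells of a type and less RNA per cell cannot be told apart.

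The promoters of 5 of the 7 genes were matched in RefSeq's table for the build GRCr8, as 300 bases from 250 before to 50 after the annotated start: Egr1, Egr2, Egr4, Nr4a1 and Nr4a2. They are shown for the 3 matched genes that were lower in PSCI than in control rats at the test's threshold (Egr2, Egr1 and Nr4a2) and for Nr4a1, whose levels across libraries lay nearest to those of Egr1. Each is written 5′ to 3′ on the strand of the gene, with capitals for CArG boxes (the element bound by the serum response factor), for TGACG (the core of the element bound by CREB) and for GCGGGGGCG (a site bound by Egr proteins), searched on both strands. On the reverse strand TGACG reads CGTCA and GCGGGGGCG reads CGCCCCCGC. Egr2 lies at chr20:21054392-21054691 on the minus strand, Egr1 at chr18:26736828-26737127 on the plus strand, Nr4a2 at chr3:62104838-62105137 on the minus strand and Nr4a1 at chr7:134259888-134260187 on the plus strand.
Egr2: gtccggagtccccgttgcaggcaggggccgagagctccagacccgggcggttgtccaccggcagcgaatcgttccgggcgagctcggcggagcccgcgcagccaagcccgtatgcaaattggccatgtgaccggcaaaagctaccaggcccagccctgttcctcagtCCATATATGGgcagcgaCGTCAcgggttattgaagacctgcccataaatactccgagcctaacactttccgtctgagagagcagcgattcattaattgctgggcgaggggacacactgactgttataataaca
Egr1: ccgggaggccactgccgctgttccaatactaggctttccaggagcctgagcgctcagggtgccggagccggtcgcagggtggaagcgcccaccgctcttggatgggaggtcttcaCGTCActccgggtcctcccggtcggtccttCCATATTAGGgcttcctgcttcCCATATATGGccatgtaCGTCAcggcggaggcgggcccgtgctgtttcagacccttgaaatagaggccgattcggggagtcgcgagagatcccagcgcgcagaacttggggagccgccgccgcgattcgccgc
Nr4a2: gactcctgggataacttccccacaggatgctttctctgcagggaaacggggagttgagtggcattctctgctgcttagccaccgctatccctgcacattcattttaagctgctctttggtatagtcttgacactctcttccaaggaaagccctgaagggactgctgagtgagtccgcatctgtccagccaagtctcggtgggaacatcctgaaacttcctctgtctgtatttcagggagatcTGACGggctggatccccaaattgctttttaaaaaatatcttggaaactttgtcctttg
Nr4a1: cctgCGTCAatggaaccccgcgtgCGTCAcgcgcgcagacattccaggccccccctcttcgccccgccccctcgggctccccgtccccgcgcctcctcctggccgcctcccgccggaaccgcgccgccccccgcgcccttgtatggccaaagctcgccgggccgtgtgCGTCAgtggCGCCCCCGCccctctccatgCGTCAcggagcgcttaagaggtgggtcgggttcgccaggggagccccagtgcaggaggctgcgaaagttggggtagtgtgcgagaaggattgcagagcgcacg

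Egr1, an early response factor induced by synaptic activity, had CArG boxes beginning 105 and 83 bases before the start and TGACG sites 135 and 66 bases before it. Egr2 had a CArG box at 83 and a TGACG site at 66 bases before the start, the same spacing as the nearer pair in Egr1. A CArG box was counted only as an exact match of 10 bases: CC, then A or T throughout, then GG. Such a match was present in 1.64% of 33469 promoters of the same length, and the windows of Egr4, Nr4a1 and Nr4a2 had none. Boxes with a base off this pattern were not searched for, so these genes may still hold CArG-like elements. TGACG was present in all 5 matched promoters, against 21.2% of all promoters. Nr4a1 had 4 TGACG sites, beginning 246, 226, 82 and 53 bases before the start, and 1 GCGGGGGCG site at 73 bases, a motif present in 2.73% of promoters. Egr4 had TGACG at 178 and 110 bases before the start, and Nr4a2 had it at 8 bases. The full palindrome TGACGTCA, which contains TGACG and was present in 1.83% of promoters, the Egr site GCGTGGGCG (0.544%) and the Nr4a site AAAGGTCA (1.43%) were found in none of the 5 windows. The share of G and C was 59.0% for Egr2, 64.7% for Egr1, 68.0% for Egr4, 72.3% for Nr4a1 and 48.7% for Nr4a2, against a median of 51.7% over all promoters. A match describes letters in a window and is not evidence of binding. Only 1 annotated start was used per gene. Egr2 has 2 listed transcripts, Nr4a1 has 4 and Nr4a2 has 7, and any other starts of these genes were not searched.

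Among the Egr genes, Egr2 stood furthest from its control level in both stroke groups. It had 1.19, 2.73 and 2.80 CPM in taVNS rats, 0.273, 1.66 and 1.31 CPM in PSCI rats and 9.87, 8.15 and 9.40 CPM in control rats, in replicate order. These rest on 17, 39 and 41 counts in taVNS, 4, 26 and 20 in PSCI and 143, 115 and 128 in controls. All 6 stroke libraries lay under all 3 controls, and the stroke groups overlapped each other. The mean was 2.24 ± 0.909 CPM in taVNS and 1.08 ± 0.720 CPM in PSCI, or 24.5% and 11.8% of the control mean of 9.14 ± 0.891 CPM (SD, n = 3 each).

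Egr1 had 16.0, 19.9 and 12.5 CPM in taVNS rats, 18.9, 7.14 and 15.8 CPM in PSCI rats and 38.4, 32.2 and 28.6 CPM in control rats. Its stroke libraries were also all under its controls, by a smaller ratio, with group means of 16.1 ± 3.68 CPM in taVNS and 13.9 ± 6.09 CPM in PSCI against 33.1 ± 4.95 CPM in controls. Egr4, a family member found mainly in neurons, had 6.66, 10.3 and 5.6 CPM in taVNS rats, 8.38, 3.0 and 18.8 CPM in PSCI rats and 27.2, 19.9 and 18.2 CPM in control rats. Its taVNS libraries all lay under the controls, while PSCI replicate 3 lay within the control range. Egr3, which takes part in synaptic plasticity and in muscle spindle development, had 47.8, 60.2 and 51.6 CPM in taVNS rats, 54.7, 24.7 and 117 CPM in PSCI rats and 85.4, 64.1 and 65.2 CPM in control rats. The taVNS libraries of Egr3 lay just under the controls, and its PSCI libraries held both the lowest and the highest of its 9 values.

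Of the Nr4a genes, Nr4a2 (Nurr1), which is known for maintaining dopamine neurons and is also induced in hippocampal neurons, was the most even. It had 39.7, 42.8 and 28.8 CPM in taVNS rats, 25.6, 26.8 and 31.4 CPM in PSCI rats and 68.7, 55.2 and 72.1 CPM in control rats. No stroke library reached the control range, and the means were 37.1 ± 7.37 CPM in taVNS and 27.9 ± 3.05 CPM in PSCI against 65.4 ± 8.92 CPM in controls. Nr4a1 (Nur77), which is induced by activity in neurons and by stimulation in immune cells, had 24.8, 27.1 and 15.5 CPM in taVNS rats, 30.6, 6.76 and 20.4 CPM in PSCI rats and 56.8, 44.6 and 43.3 CPM in control rats. Both stroke groups lay under the controls and overlapped each other, with PSCI replicate 2 lowest. Nr4a3 (Nor1), the third orphan receptor of the family, had 36.0, 55.1 and 48.3 CPM in taVNS rats, 34.5, 14.9 and 30.0 CPM in PSCI rats and 54.6, 66.0 and 64.9 CPM in control rats. It was the only member whose taVNS and PSCI libraries did not overlap, and the only one of the 7 with a taVNS library inside the control range.

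**Figure D1:**
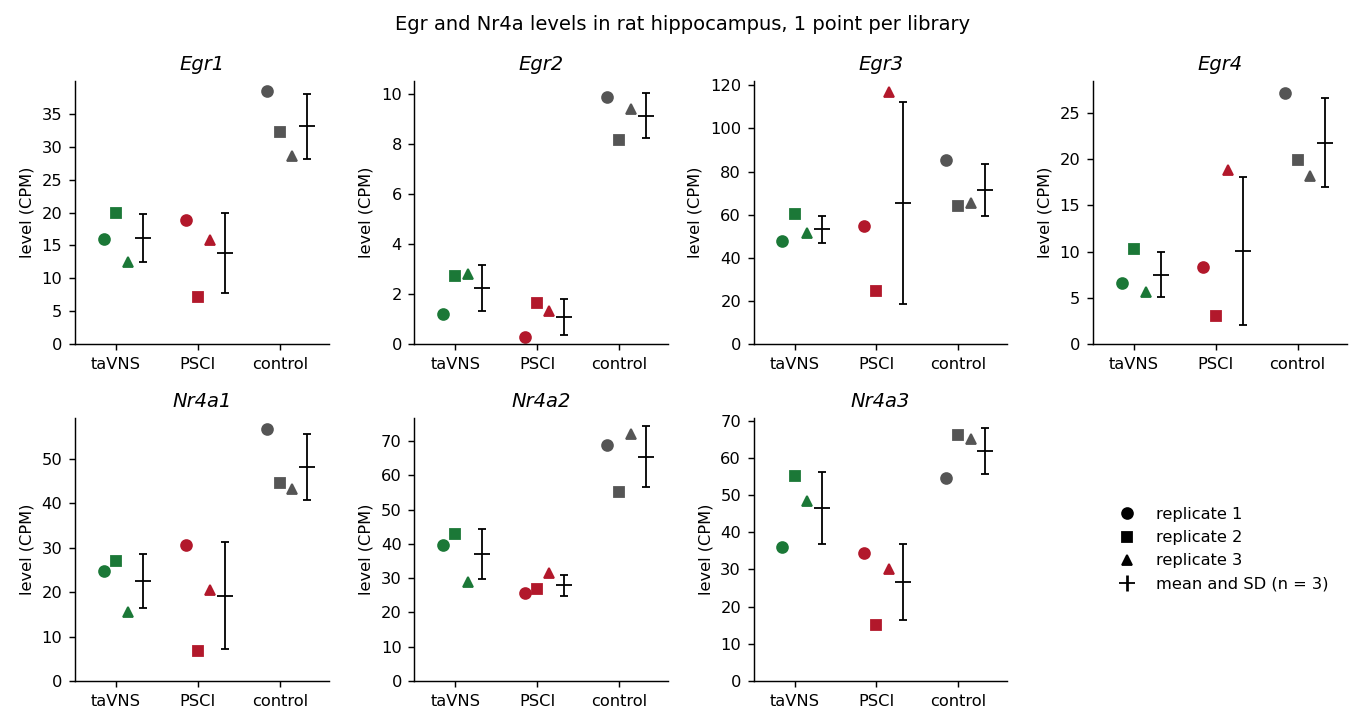
Level in CPM (vertical axis, from 0) of each of the 7 genes in taVNS, PSCI and control rats. Each point is 1 library, its shape gives the replicate, and the black mark beside it is the mean with its SD (n = 3); Egr2, Egr1, Nr4a1 and Nr4a2 have all 6 stroke libraries under the controls, while Egr3 in PSCI spans 24.7 to 117 CPM.

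The comparison of taVNS with PSCI rats asks whether stimulated rats differed from unstimulated rats with the same injury. None of the 7 genes passed an adjusted p of 0.05 in edgeR's quasi-likelihood test with Benjamini-Hochberg adjustment over all genes, where 5.75% of all genes did (0.842% higher and 4.91% lower in taVNS). At an unadjusted p under 0.05 there were 2 members, both higher in taVNS, Nr4a2 and Nr4a3, beside 21.1% of all genes in either direction. DESeq2 called 1 member, Nr4a3, where it called 2.88% of all genes higher and 10.4% in either direction, and limma-voom called 0 members and 3.23% of all genes. Nr4a3 averaged 46.5 ± 9.68 CPM in taVNS and 26.5 ± 10.2 CPM in PSCI, with a log2 fold change of 0.81 ± 0.278 (SE, 95% interval 0.19 to 1.44) and an adjusted p of 0.135 in edgeR and 0.0471 in DESeq2. Groups that did not overlap, with taVNS higher, were seen for 10.6% of all genes. Nr4a2 had a log2 fold change of 0.41 ± 0.167 (interval 0.03 to 0.79, adjusted p = 0.203 in edgeR). Without PSCI replicate 2 and taVNS replicate 3 the estimates were 0.50 for Nr4a3 and 0.54 for Nr4a2, and 0 members passed in edgeR. Nr4a3 ran from 0.53 without PSCI replicate 2 to 1.05 without PSCI replicate 1, and stayed above 0 with each library left out in turn.

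The other members had intervals that included 0 between the stroke groups. For Egr2 the log2 fold change of taVNS over PSCI was 1.04 ± 0.523 (interval -0.14 to 2.22). For Egr1 it was 0.21 ± 0.318 (-0.51 to 0.93) and for Nr4a1 0.22 ± 0.439 (-0.77 to 1.21). Egr3 had -0.30 ± 0.435 (-1.28 to 0.69) and Egr4 had -0.42 ± 0.534 (-1.63 to 0.78). Single PSCI libraries turned the sign of 4 of these estimates. Without PSCI replicate 3, the highest library for both genes in that group, Egr3 had 0.42 and Egr4 had 0.40, while without PSCI replicate 2 they had -0.68 and -0.85. Egr1 and Nr4a1 had -0.10 and -0.18 without PSCI replicate 2, and 0.50 and 0.73 without PSCI replicate 1. Without both PSCI replicate 2 and taVNS replicate 3, the estimates were 0.06 for Egr1, 1.30 for Egr2, 0.03 for Nr4a1, -0.66 for Egr3 and -0.67 for Egr4. Intervals of this width do not show that the stroke groups were alike. The median log2 fold change of the 7 genes was 0.22, beside -0.002 over all genes.

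In PSCI against control rats, Egr1, Egr2, Nr4a2 and Nr4a3 fell. These 4 of 7 passed the adjusted p in edgeR, all lower in PSCI, where 2.14% of all genes were called lower and 9.85% in either direction. Egr2 had a log2 fold change of -3.07 ± 0.518 (interval -4.23 to -1.90, adjusted p = 0.00799), an 8.37-fold lower level. Nr4a2 was 2.34-fold lower (-1.23 ± 0.168, interval -1.61 to -0.85, adjusted p = 0.00378), with the smallest SE of the 7. Nr4a3 was also 2.34-fold lower (-1.23 ± 0.280, adjusted p = 0.0259), and Egr1 2.37-fold lower (-1.25 ± 0.318, adjusted p = 0.0394). The PSCI and control libraries did not overlap for 5 members, the 4 named and Nr4a1, against 11.3% of all genes with PSCI lower.

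Nr4a1 had an estimate as low as those of Egr1, Nr4a2 and Nr4a3, -1.33 ± 0.440, with an adjusted p of 0.0950 in edgeR and 0.0196 in DESeq2. DESeq2 called 5 members lower, beside 4.79% of all genes lower and 15.2% in either direction by that tool. Egr4 had -1.11 ± 0.525 (interval -2.30 to 0.07, adjusted p = 0.224), and Egr3 had -0.13 ± 0.433 (interval -1.11 to 0.85, adjusted p = 0.890). All 7 estimates were below 0, beside 50.0% of all genes, and their median was -1.23.

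**Figure D2:**
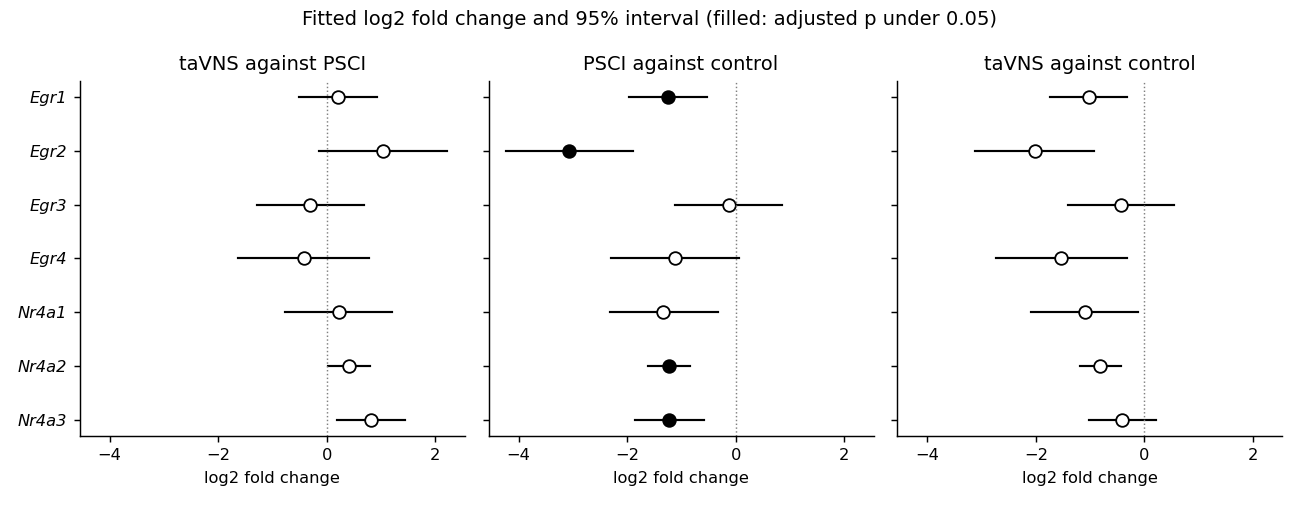
Log2 fold change (horizontal axis) of the 7 genes in taVNS against PSCI, PSCI against control and taVNS against control, from left to right. Points are edgeR estimates, lines are 95% intervals and filled points have an adjusted p under 0.05; the filled points are Egr1, Egr2, Nr4a2 and Nr4a3 in the middle panel.

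The calls for Egr2 and Nr4a2 in PSCI against control held when any 1 of the 9 libraries was left out, with adjusted p of 0.00241 to 0.0338 for Egr2 and 0.00274 to 0.0220 for Nr4a2. The Egr1 call was lost without control replicate 1, 2 or 3 (adjusted p = 0.113, 0.0983 and 0.0918 in edgeR), without PSCI replicate 3 (0.0867) and without taVNS replicate 1, 2 or 3 (0.0697, 0.0525 and 0.0519), which belong to neither group compared but share the fit. The Nr4a3 call was lost without control replicate 1, 2 or 3 (0.0548, 0.0832 and 0.0964) and without PSCI replicate 3 (0.0615). Nr4a1 passed without PSCI replicate 1 (-1.83, adjusted p = 0.0226) and Egr4 without PSCI replicate 3 (-1.94, adjusted p = 0.0473). For Egr3 the estimate was -0.85 without PSCI replicate 3, its highest library, and 0.26 without PSCI replicate 2, its lowest, and neither passed (adjusted p = 0.159 and 0.610). Without both PSCI replicate 2 and taVNS replicate 3, the libraries with more meningeal RNA, 5 members were called lower: Egr1, Egr2, Nr4a2, Nr4a3 and Nr4a1 (adjusted p = 0.0278 for Nr4a1 in edgeR). Of all 14852 genes tested in that fit, 330 were called lower.

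**Figure D3:**
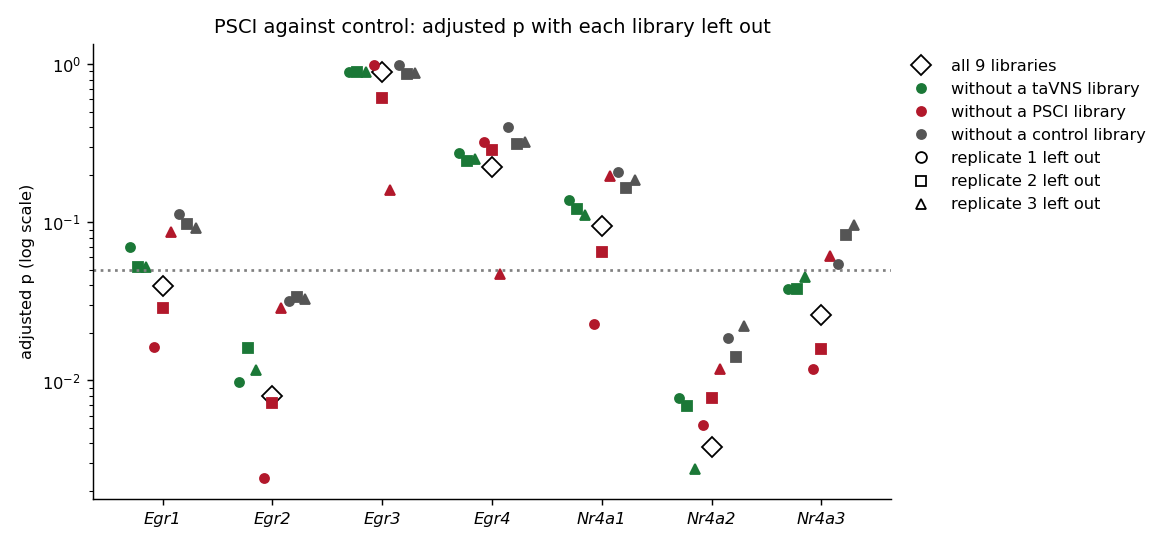
Adjusted p (vertical axis, log scale) of the 7 genes in PSCI against control with all 9 libraries (diamonds) and with each library left out in turn, coloured by the group of that library and shaped by its replicate. The dotted line is 0.05; all marks of Egr2 and Nr4a2 lie under it, while those of Egr1 and Nr4a3 lie on both sides.

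The comparison of taVNS with control rats addresses the question of low levels after stimulation most directly. All 7 genes had a lower estimate in taVNS than in control rats, beside 49.4% of all genes, and for 6 of them, all but Nr4a3, the 3 taVNS libraries lay under the 3 controls, beside 5.4% of all genes. No member passed the adjusted p in edgeR, and neither did any other gene (0.0% of 14840). At an unadjusted p under 0.05 there were 5 members, Egr1, Egr2, Egr4, Nr4a1 and Nr4a2, all lower, beside 1.58% of all genes. DESeq2 called 9 genes in all, with Nr4a2 the only member (adjusted p = 0.0342, and 0.0508 for Egr2) and 0.0202% of all genes lower, and limma-voom and limma on RPKM called 0 members.

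Nr4a2 had the fifth smallest p of all genes in taVNS against control, with a log2 fold change of -0.82 ± 0.166 (interval -1.19 to -0.44, unadjusted p = 0.000784 and adjusted p = 1 in edgeR), a 1.76-fold lower level. Egr2 was estimated 4.07-fold lower (-2.02 ± 0.486, interval -3.12 to -0.93) and Egr4 2.90-fold lower (-1.53 ± 0.535, interval -2.74 to -0.33). The estimates for Nr4a1 (-1.10 ± 0.437, interval -2.09 to -0.12) and Egr1 (-1.03 ± 0.316, interval -1.75 to -0.32) also had intervals under 0. Egr3 (-0.43 ± 0.435, interval -1.41 to 0.55) and Nr4a3 (-0.41 ± 0.274, interval -1.03 to 0.21) had intervals that included 0. Without PSCI replicate 2 and taVNS replicate 3 the 7 estimates ran from -2.23 (Egr2) to -0.42 (Egr3), and none passed in edgeR. The median of the 7 with all libraries was -1.03, beside 0.002 over all genes.

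The comparisons with control share the same 3 control rats, so a high or low control library moves both. Side by side, Egr1 had estimates of -1.03 in taVNS and -1.25 in PSCI, Nr4a1 had -1.10 and -1.33, and Egr4 had -1.53 and -1.11, each against control. Nr4a3, with -0.41 in taVNS and -1.23 in PSCI, and Egr2, with -2.02 and -3.07, had the widest gaps between the stroke groups. When both stroke groups were set together against control, Egr2 (-2.54 ± 0.398, adjusted p = 0.0262 in edgeR) and Nr4a2 (-1.02 ± 0.139, adjusted p = 0.0163) were lower, 2 members of 7 beside 0.0943% of all genes called lower. The Egr2 call was lost on leaving out control replicate 1, 2 or 3 (0.111, 0.129 and 0.135), PSCI replicate 3 (0.0648), taVNS replicate 2 (0.0765) or taVNS replicate 3 (0.0551). The Nr4a2 call was lost without control replicate 1, 2 or 3 (0.0817, 0.0539 and 0.115). All 6 stroke libraries lay under all 3 controls for 4 members, Egr1, Egr2, Nr4a1 and Nr4a2, beside 2.1% of all genes.

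Read library by library, the 7 genes lay low together in some rats and not in others. In taVNS replicates 1 and 3 and PSCI replicates 1 and 2, all 7 lay under every control library, in taVNS replicate 2 it was 6, and in PSCI replicate 3 it was 5. The share of all genes under every control was not counted for single libraries, so these counts have no background beside them. PSCI replicate 2 held the lowest value of the 9 libraries for Egr1, Egr3, Egr4, Nr4a1 and Nr4a3, and PSCI replicate 1 held it for Egr2 and Nr4a2. PSCI replicate 3 held the highest Egr3 value while its Egr1, Egr2 and all 3 Nr4a genes stayed under the controls. The summed level of the 7 genes was 172, 218 and 165 CPM in taVNS, 173, 84.9 and 234 CPM in PSCI and 341, 290 and 302 CPM in control rats, so no stroke library reached the lowest control. The coefficient of variation between replicates was 12% to 40.6% in taVNS, 10.9% to 79.9% in PSCI and 9.75% to 21.9% in controls, beside all-gene medians of 10.4%, 15.1% and 11.7%. It exceeded that median for 7 members in taVNS, 6 in PSCI (all but Nr4a2) and 5 in controls.

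**Figure D4:**
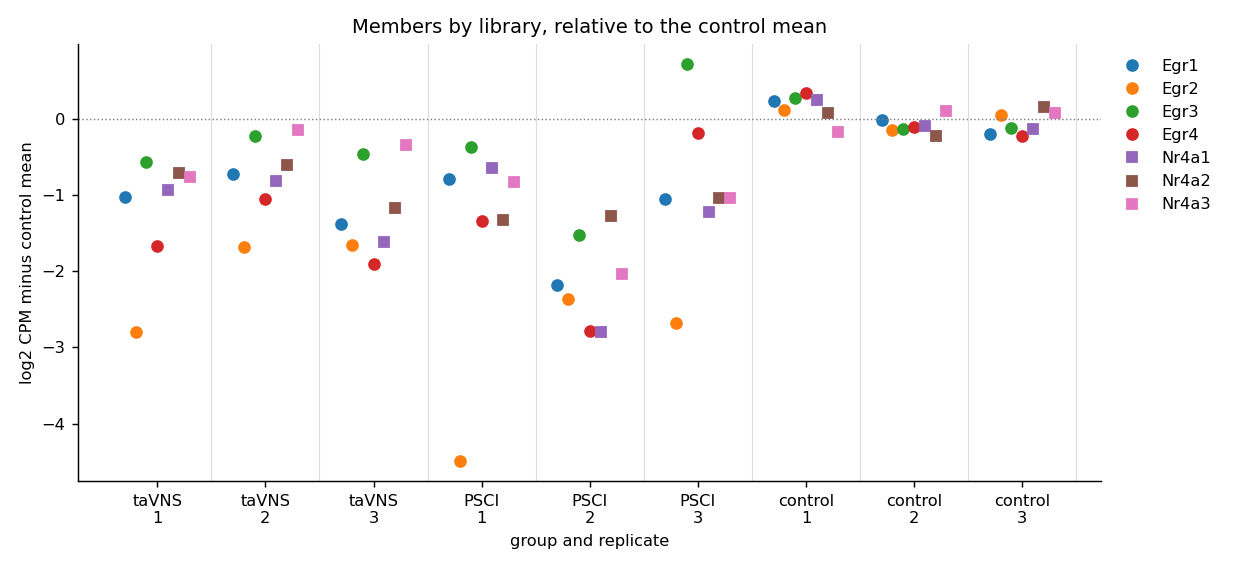
Log2 CPM minus the control mean (vertical axis) of the 7 genes in each library, grouped as taVNS, PSCI and control replicates 1 to 3. Circles are Egr genes and squares are Nr4a genes; PSCI replicate 2 holds the lowest point of 5 genes, and Egr3 in PSCI replicate 3 is the 1 stroke point above all controls.

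Levels of different genes were compared on the authors' RPKM, which scales reads by gene length and depth. In taVNS rats the order was Egr3 (16.6 ± 2.53 RPKM), Egr1 (12.8 ± 2.59), Nr4a2 (12.5 ± 2.42), Nr4a3 (11.3 ± 2.12), Nr4a1 (10 ± 2.6), Egr4 (4.0 ± 1.17) and Egr2 (0.827 ± 0.328). In PSCI rats it was Egr3 (20.5 ± 13.8 RPKM), Egr1 (11.2 ± 4.64), Nr4a2 (9.44 ± 0.731), Nr4a1 (8.60 ± 5.20), Nr4a3 (6.49 ± 2.35), Egr4 (5.39 ± 4.25) and Egr2 (0.403 ± 0.273). In control rats it was Egr1 (25.9 ± 3.63 RPKM), Nr4a1 (21.2 ± 3.06), Nr4a2 (20.9 ± 2.47), Egr3 (20.7 ± 3.09), Nr4a3 (14.8 ± 1.63), Egr4 (11.4 ± 2.38) and Egr2 (3.29 ± 0.299), all SD with n = 3. Egr1 was thus first in controls, and Egr3, the member nearest its control level in PSCI, was first in both stroke groups. Neighbours in these orders overlapped between libraries, except Nr4a1 over Egr4 and Egr4 over Egr2 in taVNS, Egr4 over Egr2 in PSCI, and Egr3 over Nr4a3 and Egr4 over Egr2 in controls. The log2 ratios of group means from RPKM and from CPM had the same sign for all 21 pairs of member and comparison, and differed by at most 0.12.

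The genes nearest in pattern to each member were found by the root mean square difference between log2 CPM profiles over the 9 libraries, each centred on its own mean. The 11973 candidates (11974 for Egr2) had a mean of at least 5 CPM, and the libraries, their depth and their groups are shared by all. Egr1 and Nr4a1 were each other's nearest gene, at 0.219, followed for Egr1 by Arrdc2 (0.270) and Thrsp (0.310), and for Nr4a1 by Aldh3b2 (0.336) and Dusp4 (0.365), a phosphatase of MAP kinases. Egr4 was nearest to Arc (0.386), a synaptic immediate early gene, then Fosb (0.448) and Egr1 (0.456). Egr3 was nearest to Tamalin (0.170), a scaffold of metabotropic glutamate receptors, then Ifrd1 (0.195) and Rasd1 (0.219). Nr4a2 was nearest to Scrg1 (0.253), Dio2 (0.254) and Luzp2 (0.264), and Nr4a3 to Thrsp (0.299), Daam2 (0.300) and Nat8f4 (0.306). Among these candidates the 3 nearest to Egr2, LOC120095261, Exph5 and Tlcd1, lay at 0.798, 0.945 and 0.969. Genes with a mean under 5 CPM, as Egr2 has, were not candidates, so nearer genes at such levels could not be found.

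The factors that switch these genes on, and their partners, were read from lists of the pathway. Srf, the serum response factor that binds CArG boxes, averaged 63.8 CPM in taVNS, 62.1 CPM in PSCI and 66.9 CPM in controls, with a log2 fold change of -0.11 for PSCI against control (adjusted p = 0.593 in edgeR). Of the 6 genes of the serum response factor list, Elk3, an Elk partner that can act as a repressor, rose in PSCI against control, with 14.7, 23.7 and 25.3 CPM in PSCI against 10.8, 10.4 and 7.86 CPM in controls (1.13 ± 0.226, adjusted p = 0.0155). Leaving out control replicate 2 (0.0528), control replicate 3 (0.0664) or PSCI replicate 3 (0.0572) ended that call. In taVNS Elk3 had 10.1, 13.5 and 11.5 CPM, with an adjusted p of 0.0588 in edgeR against PSCI. No gene of that list passed in edgeR in taVNS against PSCI. There 2 had an unadjusted p under 0.05, beside 21.1% of all genes, and DESeq2 called Elk3, beside 10.4% of all genes. In taVNS against control none passed either (0 unadjusted, 0 by DESeq2).

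None of the 16 genes of the CREB and MEF2 list passed in edgeR in any of the 3 comparisons. At an unadjusted p under 0.05 there were 3, all lower, in taVNS against PSCI, beside 21.1% of all genes in either direction. There was 1, higher, in PSCI against control, and 0 in taVNS against control. The all-gene share at an unadjusted p in PSCI against control is not given here. DESeq2 and limma-voom called 0 of the 16. None of 12 kinases and GTPases of the ERK cascade passed either, with 0, 1 and 1 at an unadjusted p and 0 by DESeq2 and limma-voom. The 1 in taVNS against control was lower, beside 1.58% of all genes. Of 5 genes for calcium entry (NMDA receptor subunits and L-type calcium channels) none passed in edgeR, with 1, 1 and 0 at an unadjusted p. The first of these stands beside 21.1% of all genes. DESeq2 called Cacna1c higher in taVNS than in PSCI, beside 2.88% of all genes. The corepressors Nab1 and Nab2, which bind Egr1, Egr2 and Egr3 and restrain them, had 42.8 and 35.1 CPM in taVNS, 39.4 and 36.8 CPM in PSCI and 51.3 and 41.5 CPM in controls. For Nab1 the log2 fold change of PSCI against control was -0.38 (adjusted p = 0.0817 in edgeR, called by DESeq2), and for Nab2 it was -0.18 (adjusted p = 0.500). The retinoid X receptors Rxra, Rxrb and Rxrg, partners of Nr4a1 and Nr4a2, had 0 of 3 called in edgeR, with 0 at an unadjusted p and 0 by DESeq2 and limma-voom in these comparisons.

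A list of 31 other activity-induced genes was set beside the members. In PSCI against control 1 of 31 fell and 1 rose in edgeR, beside 2.14% of all genes lower and 7.71% higher, with a median log2 fold change of -0.09, and 6 lay under the controls without overlap, beside 11.3% of all genes. Npas4, a neuronal factor induced by calcium entry alone, had 0.771, 2.59 and 0.615 CPM in taVNS rats, 0.341, 0.510 and 0.457 CPM in PSCI rats and 11.1, 7.01 and 3.09 CPM in control rats. It fell in PSCI (-3.99 ± 0.671, adjusted p = 0.00790), and like Egr2 it had all 6 stroke libraries under the controls. Maff, a small basic leucine zipper factor, rose in PSCI against control (2.11 ± 0.295, adjusted p = 0.00407) and fell in taVNS against PSCI (-2.83 ± 0.312, adjusted p = 0.00247), with 0.561, 0.420 and 0.342 CPM in taVNS, 3.20, 3.63 and 2.74 CPM in PSCI and 0.690, 0.637 and 0.882 CPM in controls. Trib1, a pseudokinase, fell in taVNS against PSCI (-1.58 ± 0.364, adjusted p = 0.0394), which held with PSCI replicate 1 left out and was lost with any other single library left out (adjusted p up to 0.128; 0.167 without both PSCI replicate 2 and taVNS replicate 3).

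In taVNS against control 28 of these 31 genes had an estimate below 0, with a median of -0.42, and 12 lay under the controls without overlap, beside 5.4% of all genes. None passed in edgeR, 4 had an unadjusted p under 0.05, all lower, and DESeq2 called 1, Junb. In taVNS against PSCI 2 of 31 fell in edgeR, the Maff and Trib1 given above, beside 4.91% of all genes. The median of the list was -0.33. At an unadjusted p under 0.05 there were 8 lower and 1 higher, beside 21.1% of all genes in either direction. DESeq2 called 4 lower, Fos, Gadd45g, Trib1 and Maff, where it called 10.4% of all genes in either direction. With limma-voom only Maff was called. Fos, the best known immediate early gene, had 4.13, 4.2 and 1.30 CPM in taVNS, 4.02, 19.2 and 10.6 CPM in PSCI and 18.4, 11 and 12.5 CPM in controls. Its log2 fold change was -1.81 in taVNS against PSCI (adjusted p = 0.108 in edgeR), -0.31 in PSCI against control (0.779) and -2.12 in taVNS against control (unadjusted p = 0.00496, adjusted p = 1). PSCI replicate 2, lowest for Egr1 and Nr4a1, was the highest of the 9 libraries for Fos.

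Junb, a partner of Fos, had 30.2, 27.8 and 25.1 CPM in taVNS, 32.6, 52.7 and 31.7 CPM in PSCI and 61.6, 49.6 and 46.8 CPM in controls, with -0.93 in taVNS against control (unadjusted p = 0.00129, adjusted p = 1 in edgeR). Arc, whose mRNA travels to active synapses, had 34.4, 70.5 and 38.3 CPM in taVNS, 37.8, 9.88 and 58.9 CPM in PSCI and 135, 110 and 72.4 CPM in controls. Every stroke library of Arc lay under the controls, as for Egr1, with -1.15 in taVNS and -1.58 in PSCI against control (adjusted p = 1 and 0.107).

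**Figure D5:**
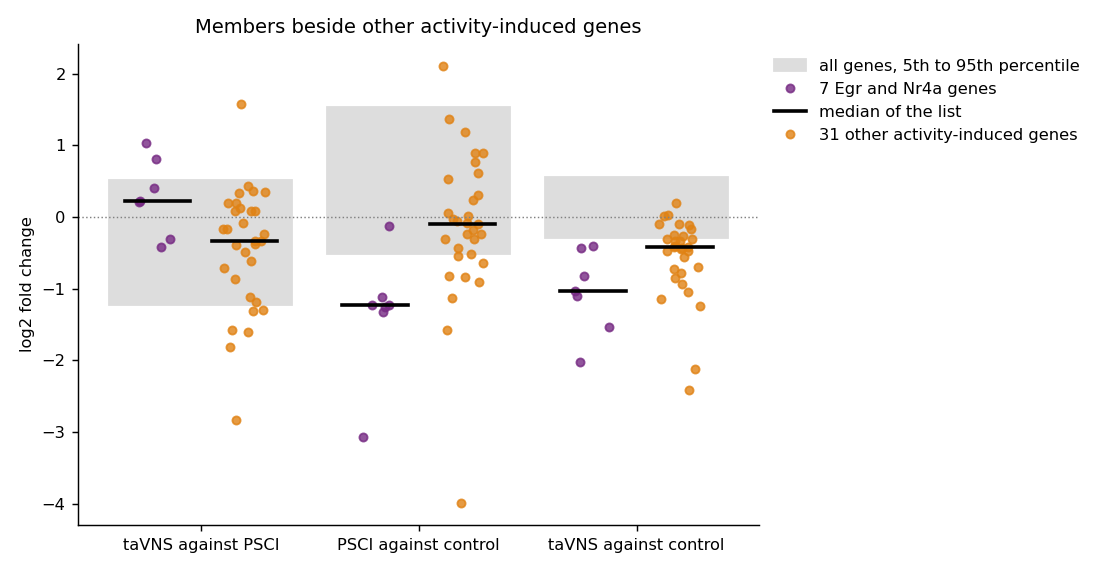
Log2 fold change (vertical axis) of the 7 Egr and Nr4a genes and of 31 other activity-induced genes in taVNS against PSCI, PSCI against control and taVNS against control. Points are genes, black bars are list medians and grey boxes span the 5th to 95th percentile of all genes; the members' medians are 0.22, -1.23 and -1.03, beside -0.33, -0.09 and -0.42 for the other list.

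Of 9 genes described as targets of Egr factors, 1 passed in edgeR, in PSCI against control, beside 9.85% of all genes. At an unadjusted p under 0.05 that comparison had 1 higher and 3 lower, for which the share over all genes is not given here. DESeq2 also called Dlg4 lower, beside 4.79% of all genes. Psmb9, an immunoproteasome subunit that Egr1 has been described to repress, rose in PSCI against control, with 3.78, 3.15 and 3.14 CPM in taVNS, 5.32, 8.16 and 5.22 CPM in PSCI and 1.86, 2.34 and 1.98 CPM in controls (1.59 ± 0.244, adjusted p = 0.00590). None of the 9 passed in taVNS against PSCI or against control in edgeR, with 2 and 1 at an unadjusted p, while DESeq2 called 2 and 0. In taVNS against PSCI these stand beside 21.1% of all genes unadjusted and 10.4% by DESeq2. Of 6 genes described as targets of Nr4a factors, 5 were tested. In PSCI against control 4 of these had estimates below 0, beside 50.0% of all genes. For 2 of them, Th and Vip, the PSCI libraries lay under the controls without overlap, beside 11.3% of all genes. Ret, the receptor of the GDNF family, fell in taVNS against PSCI (-1.79 ± 0.305, adjusted p = 0.0139) and rose in PSCI against control (1.15 ± 0.297, adjusted p = 0.0418), with 4.62, 9.30 and 7.17 CPM in taVNS, 20.5, 32.0 and 20.6 CPM in PSCI and 12.1, 13.2 and 7.64 CPM in controls. Against PSCI the call was lost without taVNS replicate 1 (0.0570) or 3 (0.0501), and against control without control replicate 1, 2 or 3 (0.0906, 0.0784 and 0.135), PSCI replicate 2 or 3 (0.0918 and 0.0716) or taVNS replicate 3 (0.0600). Without both PSCI replicate 2 and taVNS replicate 3 neither held (0.0561 against PSCI, and 0.109 for PSCI against control). Th, the tyrosine hydroxylase that Nr4a2 drives in dopamine neurons, averaged 0.737 CPM in taVNS, 0.587 CPM in PSCI and 1.07 CPM in controls, and Slc6a3, the dopamine transporter, was at or near 0 in every group: 0 in all 3 taVNS libraries, 0.136, 0 and 0 CPM in PSCI and 0.069, 0 and 0 CPM in controls. The 6 markers of dopamine neurons summed to 19.9 to 22.7 CPM in taVNS, 16.1 to 19.7 CPM in PSCI and 18.3 to 24.6 CPM in controls.

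Markers of cell types were set beside the members, and bulk libraries do not show which cells carry the Egr and Nr4a transcripts. Of the 7 markers of excitatory neurons, 0 passed in edgeR in any of these comparisons and 0 had an unadjusted p under 0.05, while DESeq2 and limma-voom called 0. Their medians were -0.02 in taVNS against PSCI, -0.15 in PSCI against control and -0.18 in taVNS against control. Estimates were below 0 for 5 of 7 in PSCI against control, beside 50.0% of all genes, and for 7 of 7 in taVNS against control, beside 49.4%. Of 6 neocortex markers, 1 was called lower in PSCI against control in edgeR, beside 2.14% of all genes, with a median of -0.37. Of 7 markers of subiculum and deep cortical layers, 1 was called higher there, beside 7.71%, with a median of 0.71. Markers of dentate granule cells summed to 226 to 331 CPM in taVNS, 200 to 288 CPM in PSCI and 284 to 417 CPM in controls, and those of interneurons to 444 to 586, 439 to 543 and 529 to 620 CPM in the same order. Of 9 interneuron markers, 1 was called lower in taVNS against PSCI in edgeR, beside 4.91% of all genes. In PSCI against control edgeR called none of either list. There DESeq2 called 1 interneuron marker higher and 1 lower, and 1 of 5 tested dentate markers lower, beside 15.2% of all genes in either direction. Among glial lists, 8 of 10 markers of microglia and macrophages rose in PSCI against control in edgeR, beside 7.71% of all genes. Another 1 went the other way there, with an unadjusted p under 0.05. Its PSCI libraries lay under the controls without overlap, beside 11.3% of all genes. In taVNS against PSCI 5 were called lower and 1 higher, beside 4.91% and 0.842% of all genes. The 10 markers summed to 277 to 351 CPM in taVNS, 486 to 769 CPM in PSCI and 188 to 256 CPM in controls. The 7 astrocyte markers summed to 3743.3 to 4755.1 CPM in taVNS, 7672.1 to 10696.2 CPM in PSCI and 3342.6 to 4725.3 CPM in controls, but the genes did not go one way: Gfap and Aqp4 rose in PSCI against control in edgeR, 3 of 7 had estimates below 0, 1 of these without overlap, and the median was 0.20. DESeq2 also called 1 astrocyte marker, S100b, lower. Of 7 oligodendrocyte markers none passed in PSCI against control in edgeR (0 at an unadjusted p, 0 by DESeq2 and limma-voom), with a median of -0.05 and sums of 8746.6 to 13642.8 CPM in taVNS, 4928.6 to 13741.8 CPM in PSCI and 9506.4 to 16692.8 CPM in controls. The Schwann cell list, set beside Egr2, had only 2 of 5 markers over the filter and summed to 30.2 to 44.5 CPM in taVNS, 51.4 to 83.5 CPM in PSCI and 28.1 to 48.0 CPM in controls. The 2 tested markers had estimates of opposite sign in PSCI against control, none passed in edgeR in PSCI against control (1 at an unadjusted p, 0 by limma-voom), and DESeq2 called Pmp22 alone, higher. The 5 red blood cell markers summed to 185 to 431 CPM in taVNS, 38.1 to 110 CPM in PSCI and 118 to 132 CPM in controls. In taVNS against PSCI 3 of them rose in edgeR, beside 0.842% of all genes. The part of these cell types in the levels of the Egr and Nr4a genes was not tested.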

How the data were processed

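Poly(A) RNA of 9 rat hippocampi was sequenced, 1 library per rat by the labels, so p-values measure the spread between 3 rats per group. Estimated counts per gene, not scaled, and RPKM values, scaled by gene length and depth, were deposited by the authors. Per the submitters' processing notes HISAT2 2.0.4, RSEM 1.2.8 and the build mRatBN7.2 were used, and their roles, the annotation and filters are not given in the sources used here.

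Estimated counts were rounded, filtered with filterByExpr and scaled by TMM (trimmed mean of M values) in edgeR 4.0.16 (R 4.3.3). All 9 libraries were fitted on group (6 residual degrees of freedom) with the quasi-likelihood F test, and p-values were adjusted by Benjamini-Hochberg over 14840 genes; a gene was called at an adjusted p under 0.05. Log2 CPM used a prior count of 2. The floor of 3 counts covers counting error only. The 95% intervals come from the quasi-likelihood fit and include the spread between rats. Alternatives were DESeq2 1.42.0, limma 3.58.1 (voom, and trend on RPKM with pseudocounts of 0.1 and 1), other scaling, no filter, the compared groups alone, a replicate block, and leaving out libraries. The procedure was tested on simulated data.

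Named were the 7 members in every comparison, any called gene of the pathway lists, Nab1, Nab2, Srf, Fos, Arc, Npas4 and Junb whatever their call, and the 3 genes nearest in pattern to each member. Named besides these, after their values were seen, were genes called only by DESeq2 (Cacna1c, S100b, Pmp22, Gadd45g, Dlg4), Slc6a3, Gfap, Aqp4, Th and Vip. The members and lists were chosen with earlier results of these data known. Gene identifiers were matched to RefSeq's GRCr8 table (18486 found), and its promoter sequences were searched for motifs. Near-identical copies were not checked for.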

Additional observations from a re-analysis of the deposited data

How the results depend on the processing

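No result turned its direction among called values. The number of members called lower in PSCI against control, 4, was 2 with the compared groups alone (Egr1 0.0810, Nr4a3 0.0584 lost) and 2 with the replicate block, and 2 to 5 with single libraries left out. All genes called lower in these fits, of 14647 to 15100 tested, numbered 113, 209 and 91 to 497 in the same order. For both stroke groups against control, 2 members became 5 with DESeq2, 1 with limma on log2(RPKM + 0.1) and no filter, 1 with the replicate block, 4 without PSCI replicate 2 and taVNS replicate 3, and 0 to 5 with single libraries left out. All genes called lower in these fits, of 14840 to 18727 tested, numbered 185, 6, 9, 19 and 1 to 103 in the same order. DESeq2 called 1 member higher in taVNS against PSCI and 1 lower in taVNS against control, where edgeR called 0. Over all genes, the 854 called in taVNS against PSCI became 1550 with DESeq2, 480 with limma-voom, 250 with the compared groups alone, 518 with the replicate block, 361 without those 2 libraries and 172 to 1707 with single libraries left out. The 1461 in PSCI against control became 2257 with DESeq2, 806 with the compared groups alone and 548 to 2255 with single libraries left out. The 0 in taVNS against control became 9 with DESeq2, 1 with limma on unfiltered RPKM, 1 without those 2 libraries and 0 to 1 with single libraries left out. The 114 for both stroke groups became 806 with DESeq2, 39 with limma-voom, 73 with log2(RPKM + 1) and 16 to 742 with single libraries left out. The causes were not tested. DESeq2 moved the share called higher to 27.5% in taVNS against PSCI (edgeR 14.6%) and to 77.0% for both stroke groups (edgeR 87.7%). Estimates for taVNS against control were negative in 140 of 140 fits of the 7 members, those for PSCI against control in 137 of 140, and those for taVNS against PSCI in 40 of 140.

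Replicate numbers did not pair the samples: correlations of deviations ran from -0.468 to 0.255 over 9 same-numbered pairs, with 2 over 0.1, and 6 of 18 were best with their own number. With the replicate block in PSCI against control, Egr1 (adjusted p = 0.0657) and Nr4a3 (0.0619) missed the threshold in edgeR, and for both stroke groups Nr4a2 did (0.0540). With 3 rats per group, 4 to 41 counts of Egr2 in a stroke library limit its precision.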
